A study of Mus musculus with 2 samples.

Results

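The genes described here are 9 mouse genes that sense amino acid and other stresses through translation initiation factor 2 (eIF2) or that set its activity. They are the eIF2 kinase genes Eif2ak1, Eif2ak2, Eif2ak3 and Eif2ak4, the GCN2 partner genes Gcn1 and Impact, the eIF2 alpha gene Eif2s1, the eIF2B epsilon gene Eif2b5 and the constitutive phosphatase subunit gene Ppp1r15b. They were chosen by name from the 54532 Ensembl genes of the count table, and all 9 were found there. Primary CD8+ T cells from the spleens of wild-type mice were kept for 8 h in methionine-free RPMI 1640 or in complete RPMI 1640, and each culture gave 1 bulk RNA-seq library. The donors are labelled ND mice, a term the labels do not spell out. Nothing used here gives their strain, age or number, or says whether both cultures came from the same animals. With 1 library per medium there is no replicate check, so no p-value is given and every interval covers counting error only.

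eIF2 carries the initiator methionyl-tRNA to the small ribosomal subunit, and eIF2B reloads it with GTP after each round of initiation. When a kinase phosphorylates the alpha subunit, eIF2 holds on to eIF2B, general translation slows, and a small set of mRNAs with upstream reading frames, Atf4 among them, is translated more. GCN2 is the kinase that senses uncharged tRNA in amino acid shortage, and it is known in T cells for that role. A phosphatase complex built on CReP or GADD34 removes the phosphate again.

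The phosphorylated site and the part of the kinases that acts on it are shown because every kinase gene below meets at this 1 residue. Serine 51 of the mature eIF2 alpha protein is codon 52 of Eif2s1 counted from the start codon. It lies in a coding exon on the plus strand at chr12:78866665-78866697 (GRCm38), and the stretch below runs over codons 47 to 57 with the serine codon in capitals.
Eif2s1: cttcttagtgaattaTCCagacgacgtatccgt
The catalytic loop of each kinase is given over 8 codons, with the codon of the catalytic aspartate in capitals.
Eif2ak1: cacagaGATctgaagcctagaaat
Eif2ak2: cacagaGATcttaagccaggtaat
Eif2ak3: cacaggGACctcaagccttccaac
Eif2ak4: catcgcGACttgaagcctgtcaat
The Eif2ak4 loop lies within 1 exon on the plus strand, at chr2:118438975-118438998. Each of the others is split by an intron, with its outer ends at chr5:143889482-143897173 (plus strand) for Eif2ak1, chr17:78858624-78863853 (minus strand) for Eif2ak2 and chr6:70893127-70896924 (plus strand) for Eif2ak3. The loops of Eif2ak1 and Eif2ak2 matched at 20 of 24 bases, the most of any pair, and those of Eif2ak2 and Eif2ak4 at 15, the fewest. The sequences were read from the GENCODE M21 transcripts.

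The methionine-free library held 19647681 counts and the complete-medium library 14646527. All 8 markers of CD8+ T cells fixed for the check had counts, and they summed to 1912 CPM (counts per 1000000 scaled counts) without methionine and 2113 CPM in complete medium. The 5 B cell markers, all with counts in both libraries, summed to 126 CPM without methionine and 205 CPM in complete medium. Ighm alone, the gene of the IgM heavy chain, made up 120 CPM of that sum without methionine and 196 CPM in complete medium. Among the others, Cd79b was also lower without methionine, while Cd79a had a ratio of 0.999 and Ms4a1 one of 1.44, the last 2 with intervals that held 1. The 4 dendritic cell markers, also with counts in both, summed to 26.8 CPM without methionine and 8.38 CPM in complete medium. Most of that sum was Zbtb46, at 18.3 CPM without methionine and 5.24 CPM in complete medium, and Flt3, at 7.60 CPM without methionine and 2.25 CPM in complete medium. Itgax had 16 counts without methionine and 8 in complete medium. Xcr1 went the other way, with 2 counts without methionine and 5 in complete medium. The ratio intervals of Itgax and Xcr1 held 1. Markers of other cells were low. Of 5 myeloid markers, 4 had counts without methionine (6.53 CPM) and 5 in complete medium (5.92 CPM). Both CD4+ T cell markers had counts, at 4.54 CPM without methionine and 4.15 CPM in complete medium. Of 7 erythroid markers, 5 had counts without methionine (2.30 CPM) and 4 in complete medium (1.63 CPM). Of 3 NK cell markers, 1 had counts without methionine (0.0510 CPM) and 2 in complete medium (0.477 CPM). Among the markers listed at 0 counts were Klrb1c and Hba-a2 in both libraries, Ncr1 and Csf1r without methionine, and Alas2 in complete medium. Their part in the differences below was not tested, and in bulk RNA fewer cells of a type and less RNA per cell cannot be told apart.

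None of the 9 genes was at least 1.5-fold higher or lower without methionine. Of the 13041 genes whose counts averaged 10 or more, 33.7% were past that fold in either direction, 15.7% higher and 18% lower. None of the 9 was past 2-fold either, beside 15.1% of all genes tested, 5.8% higher and 9.29% lower. Among the 7260 genes with a mean count as high as that of the lowest of the 9 (334), the share past 1.5-fold was 22.2%. The log2 differences (methionine-free minus complete medium) ran from -0.48 for Eif2ak2 to 0.47 for Impact, with a median of 0.07, beside a median of 0.04 over all genes tested. The 95% counting interval of the ratio left out 1 for 6 of the 9 genes, and for 66.8% of all genes tested. All 9 passed the minimum, with mean counts of 334 and above.

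**Figure D1:**
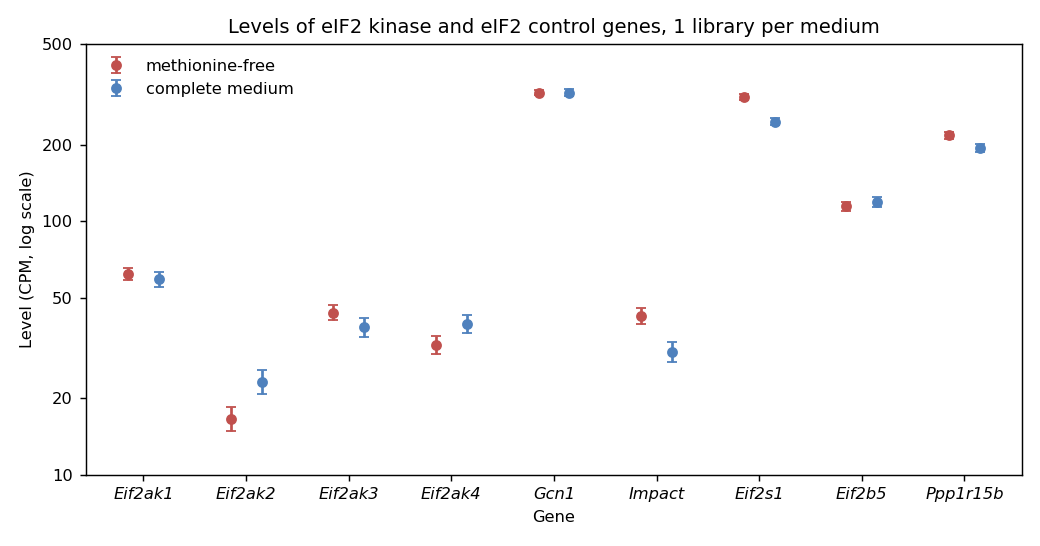
Levels of the 9 genes in CPM on a log axis, with the methionine-free library (red) left of complete medium (blue) for each gene; bars are exact 95% Poisson intervals of the counts. The points of Gcn1 coincide at 321 CPM without methionine and 322 CPM in complete medium. The bars stand apart for Eif2ak2 and Eif2ak4, lower without methionine, and for Impact, Eif2s1 and Ppp1r15b, higher without methionine.

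Eif2ak4 encodes GCN2, the sensor of uncharged tRNA. It had 637 counts without methionine, against 580 in the smaller complete-medium library. Scaled, these were 32.5 CPM without methionine and 39.5 CPM in complete medium. That made it 1.22-fold lower without methionine (1.08 to 1.36 by counting), and 62.8% of all genes tested had a difference at least as large. The gene spans 118388618 to 118475234 on the plus strand of chromosome 2 (GRCm38, as for all spans below).

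Eif2ak2 encodes PKR, the kinase activated by double-stranded RNA and an interferon-stimulated gene. It was the lowest of the 4 kinase genes in both libraries, at 16.6 CPM without methionine and 23.3 CPM in complete medium. These rest on 326 counts without methionine and 342 counts in complete medium. The ratio was 1.40-fold lower (1.20 to 1.63), so the interval held 1.5-fold, and 41.6% of all genes tested differed by as much. It lies on the minus strand of chromosome 17, from 78852564 to 78882573.

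Eif2ak3 encodes PERK, the kinase of the endoplasmic reticulum (ER) membrane that senses unfolded proteins. It was at 43.5 CPM without methionine and 38.2 CPM in complete medium, or 1.14-fold higher (1.02 to 1.27). Its counts were 853 without methionine and 561 in complete medium. It lies on the plus strand of chromosome 6, from 70844515 to 70905245.

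Eif2ak1 encodes HRI, the kinase restrained by heme and also reached by signals from stressed mitochondria. It had the highest level of the 4 kinase genes, 61.9 CPM without methionine and 59.0 CPM in complete medium. Its counts were 1213 without methionine and 866 in complete medium. The ratio of 1.05 (0.961 to 1.15) held 1. It lies on the plus strand of chromosome 5, from 143817788 to 143904251, and overlaps Aimp2 on the opposite strand, which had 1298 counts without methionine and 808 counts in complete medium. Nothing used here says whether the counting was by strand, so reads of these 2 genes cannot be told apart where they overlap. Genes that overlap the other 8 had at most 18 counts in either library.

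**Figure D2:**
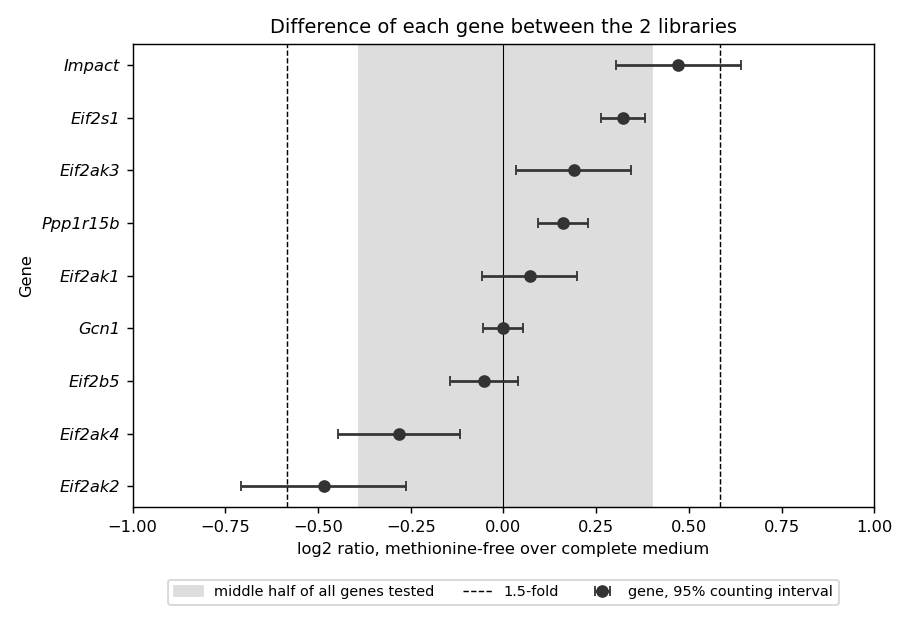
Log2 ratio of methionine-free over complete medium for each of the 9 genes (points) with its 95% counting interval (bars); the grey band is the middle 50% of all genes tested, from -0.39 to 0.40, and the dashed lines mark 1.5-fold. Every point lies between the dashed lines, with Impact at 0.47 and Eif2ak2 at -0.48 outside the grey band and the other 7 within it.

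Summed over the 4 kinase genes there were 3029 counts without methionine and 2349 in complete medium, a scaled ratio of 0.967 (0.916 to 1.02). The intervals of each gene's share of that sum stood apart between the libraries for 3 of the 4. Eif2ak3 took 28.2% of the kinase counts without methionine (Clopper-Pearson 95% interval 26.6 to 29.8) and 23.9% in complete medium (22.2 to 25.7). Eif2ak2 took 10.8% without methionine (9.68 to 11.9) and 14.6% in complete medium (13.2 to 16.1). Eif2ak4 took 21% without methionine (19.6 to 22.5) and 24.7% in complete medium (23.0 to 26.5). The share of Eif2ak1, 40.1% without methionine (38.3 to 41.8) and 36.9% in complete medium (34.9 to 38.9), had intervals that overlapped slightly, which does not show that the share was alike. These shares do not depend on how the libraries were scaled to each other.

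**Figure D3:**
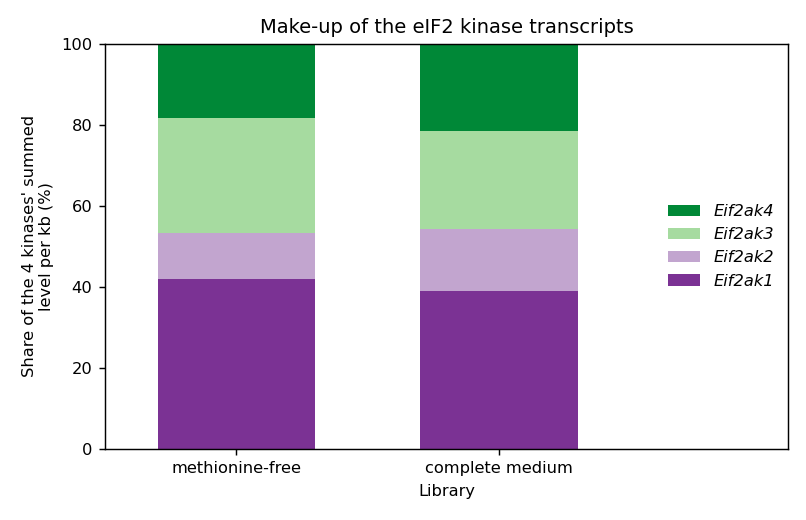
Share of each kinase gene in the summed level per kb of the 4 kinase genes (%), in the methionine-free library (left) and complete medium (right). Eif2ak1 holds the largest share in both, 42.0% without methionine and 38.9% in complete medium, and Eif2ak2 holds 11.3% without methionine and 15.4% in complete medium.

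Eif2ak3 and Eif2ak2 had the kinase promoters with the plainest motif content, and both are shown from the RefSeq promoter windows of GRCm38.p6, which hold 250 bases before and 50 after the start site. The motifs were chosen with these sequences in view, and both strands were searched. The Eif2ak2 window lies at chr17:78882523-78882822 on the minus strand; capitals mark the match to GAAANNGAA, a core of the interferon-stimulated response element.
Eif2ak2: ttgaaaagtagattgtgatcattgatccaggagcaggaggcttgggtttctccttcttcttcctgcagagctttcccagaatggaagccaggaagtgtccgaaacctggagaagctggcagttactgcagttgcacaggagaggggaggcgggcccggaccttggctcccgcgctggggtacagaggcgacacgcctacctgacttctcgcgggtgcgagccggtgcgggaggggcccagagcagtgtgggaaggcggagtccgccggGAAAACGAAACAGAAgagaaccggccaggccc
It held 2 overlapping matches, the first beginning at base 18 after the start site, and 8.56% of all 32851 windows held at least 1 match. Among these was the window of Eif2s1, with 1 match at base -212 from the start site. The Eif2ak3 window lies at chr6:70844265-70844564 on the plus strand; capitals mark CCAAT or its reverse complement, the CCAAT box bound by NF-Y.
Eif2ak3: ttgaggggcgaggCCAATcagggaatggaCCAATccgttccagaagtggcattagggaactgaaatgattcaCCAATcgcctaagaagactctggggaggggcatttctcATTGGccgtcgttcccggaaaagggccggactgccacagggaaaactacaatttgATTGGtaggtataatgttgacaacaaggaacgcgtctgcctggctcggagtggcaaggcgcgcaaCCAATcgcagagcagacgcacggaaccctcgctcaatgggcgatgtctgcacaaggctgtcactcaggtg
It held 6 matches. At least 1 was found in 37.4% of all windows, and 6 or more in 26 of them. The composite motif TGATGNAA, bound by ATF4 with C/EBP partners, was found in 3.97% of all windows. It was in none of the windows of the 7 genes that had one. The windows of Ppp1r15a, Atf5 and Ddit3, genes described below that were higher without methionine, held none either. The Ppp1r15a window did hold 1 match to the cyclic AMP response element TGACGTCA, at base -12 from the start site. That motif was found in 1.79% of all windows. The Ppp1r15a window also held 1 match to GAAANNGAA, at base -220.

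Of the 19 interferon-stimulated genes listed beside Eif2ak2, 17 were measured. Of these, 3 were at least 1.5-fold higher and 2 lower without methionine, beside 15.7% and 18% of all genes tested. Their median log2 difference was 0.13. Eif2ak2 itself was lower at -0.48. Oasl1, of the oligoadenylate synthetase-like family, had 81 counts without methionine and 26 in complete medium, 2.34-fold higher (1.49 to 3.79). Ifit3, an antiviral tetratricopeptide gene, was 1.72-fold higher (1.23 to 2.45), from 115 counts without methionine and 50 counts in complete medium. Oasl2, a relative of Oasl1, was the third higher gene, with 37 counts without methionine and 17 counts in complete medium and an interval that held 1. Usp18, which removes ISG15 from proteins and dampens interferon signalling, was 1.95-fold lower (1.72 to 2.22), and Mx1, an antiviral GTPase gene, had 6 counts without methionine and 18 counts in complete medium. The list therefore went both ways, as did all genes tested. Among its genes that averaged 100 counts or more, none was past 1.5-fold higher and 1, Usp18, was lower. Of all genes with such counts, 25.9% were past that fold in either direction.

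The ER unfolded protein response list is set beside Eif2ak3, since PERK is 1 of its sensors. The 13 genes held 1 that was past 1.5-fold higher and 5 that were lower, beside 15.7% and 18% of all genes tested. The list had a median log2 difference of -0.40. The other sensor genes, Ern1 (IRE1 alpha) and Atf6, were 1.39-fold (1.18 to 1.65) and 1.28-fold (1.18 to 1.40) higher, and so had the same sign as Eif2ak3. Several chaperone genes and Xbp1 lay lower, as did Ighm, which carries the B cell marker sum given above and whose part in this was not tested. Sdf2l1, an ER chaperone cofactor gene, was 3.42-fold lower (3.08 to 3.80), at 25.7 CPM without methionine and 87.9 CPM in complete medium. Hsp90b1, the gene of GRP94, was 1.79-fold lower (1.73 to 1.85), and Xbp1, the transcription factor gene spliced by IRE1, was 1.83-fold lower (1.72 to 1.94). Hspa5, the gene of BiP, which holds PERK inactive, was 1.25-fold lower (1.22 to 1.29), at 631 CPM without methionine and 792 CPM in complete medium. Dnajb9, an ER co-chaperone gene, was the exception at 2.17-fold higher (1.84 to 2.57), at 28.2 CPM without methionine and 13.0 CPM in complete medium.

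Genes of heme synthesis and breakdown are set beside Eif2ak1, whose kinase is restrained by heme. Of 13 genes, 1 was at least 1.5-fold higher and 2 were lower, beside 15.7% and 18% of all genes tested. The list had a median log2 difference of -0.30. Hmox1, the heme oxygenase gene, was 1.78-fold higher (1.55 to 2.06), at 34.5 CPM without methionine and 19.3 CPM in complete medium. Blvra, which encodes the enzyme that reduces biliverdin, was 1.36-fold lower (1.20 to 1.53). Blvrb, a biliverdin reductase gene abundant in red cells, had 8 counts without methionine and 30 counts in complete medium.

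Gcn1 and Impact encode opposed partners of GCN2. GCN1 binds GCN2 and ribosomes and is needed for its activation, while IMPACT competes with GCN2 for GCN1. Gcn1 had 6296 counts without methionine and 4721 in complete medium. Scaled, these were 321 CPM without methionine and 322 CPM in complete medium, a ratio of 1.0 (0.962 to 1.04). Impact had 829 counts without methionine and 448 counts in complete medium. Scaled, these were 42.3 CPM without methionine and 30.5 CPM in complete medium. Impact was thus 1.39-fold higher (1.24 to 1.56), an interval that held 1.5-fold. For every 100 counts of Gcn1 there were 13.2 of Impact without methionine and 9.49 in complete medium. Over the same 100 counts of Gcn1 there were 10.1 of Eif2ak4 without methionine and 12.3 in complete medium. The level of the inhibitor gene relative to Gcn1 was thus higher and that of the kinase gene lower in the methionine-free library. Gcn1 spans 115565254 to 115622654 on the plus strand of chromosome 5, and Impact 12955852 to 12992950 on the plus strand of chromosome 18.

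The list of kinase regulators held 10 genes, with a median log2 difference of -0.09. Of these, 2 were at least 1.5-fold lower and none higher, beside 18% and 15.7% of all genes tested. The 3 genes of the ribosomal P stalk, whose proteins activate GCN2 in biochemical assays, were each within 1.5-fold. Rplp0 was 1.30-fold (1.29 to 1.32) and Rplp1 1.29-fold (1.27 to 1.31) higher, although processed pseudogenes of these abundant genes could share reads. Map3k20, which encodes the ribosome collision kinase ZAK, had 4 counts without methionine and 54 in complete medium, 18-fold lower (6.64 to 68.5). Prkra, which encodes the PKR activator PACT, had 28 counts without methionine and 46 counts in complete medium, 2.19-fold lower (1.34 to 3.64). Oma1 and Dele1, whose products carry the mitochondrial signal to HRI, were at log2 differences of -0.20 and 0.12. Both genes past 1.5-fold, Map3k20 and Prkra, lie under a mean of 100 counts. Above that minimum none of the list was past 1.5-fold, beside 25.9% of all genes.

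Eif2s1, the gene of the phosphorylated alpha subunit, was 1.25-fold higher without methionine (1.20 to 1.30). It had 6043 counts without methionine and 3624 in complete medium. Scaled, these were 308 CPM without methionine and 247 CPM in complete medium. It spans 78861819 to 78887010 on the plus strand of chromosome 12. The other eIF2 subunit genes lay on either side of it. Eif2s2, the beta subunit gene, was 1.37-fold higher (1.33 to 1.41), at 591 CPM without methionine and 432 CPM in complete medium. Eif2s3x and Eif2s3y, near-identical gamma subunit genes of the X and Y chromosomes that could share reads, were at log2 differences of -0.24 and 0.19. Eif2s1 took 26.0% of the counts of these 4 genes without methionine (25.5 to 26.6) and 24.8% in complete medium (24.1 to 25.5).

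Eif2b5 encodes the epsilon subunit, the catalytic part of eIF2B. It had 2248 counts without methionine and 1748 in complete medium. Scaled, these were 115 CPM without methionine and 119 CPM in complete medium, a ratio of 0.964 (0.905 to 1.03). It spans 20498817 to 20509323 on the plus strand of chromosome 16. The other eIF2B subunit genes differed more from a ratio of 1. Eif2b4, the delta subunit gene, was 1.32-fold higher (1.21 to 1.43) and Eif2b2, the beta subunit gene, 1.22-fold higher (1.12 to 1.33). Eif2b3, the gamma subunit gene, was 1.27-fold lower (1.15 to 1.41), at 40.4 CPM without methionine and 51.3 CPM in complete medium. Eif2b5 therefore took 28.7% of the counts of the 5 subunit genes without methionine (27.7 to 29.7) and 32.4% in complete medium (31.2 to 33.7). None of the 7 other eIF2 and eIF2B subunit genes was past 1.5-fold, beside 33.7% of all genes tested. The median log2 difference of the 7 was 0.28.

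Ppp1r15b encodes CReP, the constitutive targeting subunit of the eIF2 alpha phosphatase. It had 4276 counts without methionine and 2867 in complete medium. Scaled, these were 218 CPM without methionine and 195 CPM in complete medium, 1.12-fold higher (1.07 to 1.17). It spans 133131143 to 133139783 on the plus strand of chromosome 1. Ppp1r15a, the stress-inducible counterpart that encodes GADD34, had 2989 counts without methionine and 700 in complete medium. Scaled, these were 153 CPM without methionine and 47.7 CPM in complete medium. It was the 1 gene of the 5 phosphatase partners past 1.5-fold (list median log2 difference 0.07), at 3.20-fold higher (2.95 to 3.48). Of all genes tested, 15.7% were past 1.5-fold higher. Of the counts of both targeting subunit genes, Ppp1r15a took 41.1% without methionine (40.0 to 42.3) and 19.6% in complete medium (18.3 to 21). Per kb of transcript, Ppp1r15a stood at 1.39 times Ppp1r15b without methionine and at 0.486 times in complete medium, so the order of these 2 genes differed between the libraries. The PP1 catalytic subunit genes differed little. Ppp1cb and Ppp1cc were at log2 differences of 0.17 and -0.09, and Ppp1ca at -0.04. Nck1, an adapter reported to assist the phosphatase, was at 0.07.

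Levels of different genes were compared per kb, as CPM divided by the length of the transcript with the longest coding sequence. Without methionine the order from high to low was Eif2s1 at 90.6 CPM per kb, Eif2b5 at 44.9, Ppp1r15b at 39.0, Gcn1 at 37.6, Eif2ak1 at 14.3, Impact at 11.2, Eif2ak3 at 9.65, Eif2ak4 at 6.24 and Eif2ak2 at 3.86. In that library Ppp1r15b and Gcn1 had overlapping counting intervals. In complete medium the order was Eif2s1 at 72.5 CPM per kb, Eif2b5 at 46.6, Gcn1 at 37.6, Ppp1r15b at 34.9, Eif2ak1 at 13.6, Eif2ak3 at 8.46, Impact at 8.11, Eif2ak4 at 7.58 and Eif2ak2 at 5.40. There the intervals of Eif2ak3 and Impact overlapped, as did those of Impact and Eif2ak4. In both libraries the 4 kinase genes and Impact thus lay below the other 4 genes, and the substrate gene was the highest. With the merged exons of all annotated transcripts as the length, chosen after the data were seen, Gcn1 stood at 18 CPM per kb in either library and below Ppp1r15b in complete medium; the other ranks were kept.

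Several genes downstream of eIF2 phosphorylation differed by more than any of the 9. Of 7 genes whose mRNAs are translated through upstream reading frames, 4 were past 1.5-fold higher without methionine and none lower. Of all genes tested, 15.7% were past that fold higher and 18% lower. The list had a median log2 difference of 0.83, but it was chosen with earlier results of these data known. Ddit3, the gene of the transcription factor CHOP, was 5.80-fold higher (5.17 to 6.52), and Atf5, of the ATF4 family, 5.36-fold higher (4.94 to 5.82). Atf4 was 1.78-fold higher (1.73 to 1.83), at 796 CPM without methionine and 448 CPM in complete medium. Ppp1r15a, described above, was the fourth.

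The 18 genes listed as ATF4 targets lay on both sides: 5 were at least 1.5-fold higher and 5 lower, with a median log2 difference of -0.09. Ddit3, Atf5 and Ppp1r15a, all higher, stand in other lists and are not among these 18. The split therefore depends on how the genes were sorted into lists. Cebpg, which encodes a dimerisation partner of ATF4, was 2.62-fold higher (2.48 to 2.77). Trib3, the gene of a pseudokinase that restrains ATF4, was 2.40-fold higher (2.25 to 2.55), and Nupr1, a stress-response gene, 1.98-fold higher (1.51 to 2.60). Vldlr, the very low density lipoprotein receptor gene, was 6.72-fold lower (4.35 to 10.8), on 25 counts without methionine and 126 in complete medium. Among the listed targets that averaged 100 counts or more, 5 were past 1.5-fold higher and 4 lower. Of all genes with such counts, 25.9% were past that fold in either direction. Of 7 genes of the eIF2 cycle and of initiation without eIF2, 1 was past 1.5-fold higher and 1 lower, with a median log2 difference of 0.12. Eif5, whose product makes eIF2 hydrolyse its GTP, was 1.55-fold higher (1.5 to 1.6), and Eif2d, an initiation factor gene that works without eIF2, was 1.65-fold lower (1.5 to 1.82). Bzw1 and Bzw2, which encode mimics of eIF5, were at log2 differences of 0.21 and -0.24. Over all lists, with each gene once, 15 of 95 measured genes were higher by 1.5-fold or more and 17 lower, beside 15.7% and 18% of all genes tested.

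**Figure D4:**
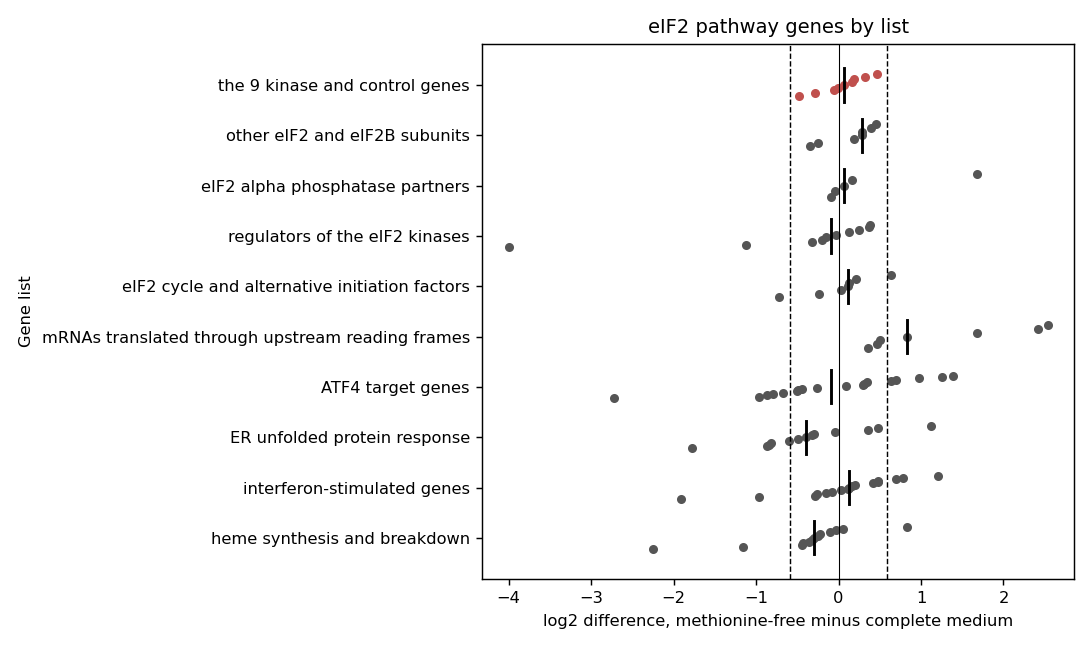
Log2 difference (methionine-free minus complete medium) of each measured gene in the 9 genes described here (red, top) and in the 9 pathway lists (grey); vertical bars are medians and dashed lines mark 1.5-fold. The red points lie between -0.48 and 0.47, the list of mRNAs with upstream reading frames has the highest median at 0.83, and that of the ER unfolded protein response the lowest at -0.40.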

How the data were processed

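The authors deposited raw counts per Ensembl gene, as whole numbers with no scaling, for 1 library of each medium. Per the submitters' processing notes the genome build was mm10; the aligner, counter, annotation release and strand setting were not given in these sources. Per the labels' protocols, RNA was extracted with TRIzol and libraries came from a whole-RNA or an mRNA kit, with no statement of which. Columns were matched to samples by the samples' titles and descriptions.

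Symbols, coordinates and transcripts came from GENCODE M21 (GRCm38, the assembly of mm10), which matched 54495 of 54532 identifiers; Gcn1 stands there under an older symbol, matched through RefSeq synonyms. For Ddit3, which has a further identifier without counts, the identifier with counts was used. Promoter windows came from RefSeq (GRCm38.p6) and matched 7 of the 9 genes. The capital marks in sequences, and 1-based coordinates, were written from those files.

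Counts were scaled by TMM (edgeR 4.0.16, R 4.3.3; factors 0.997 for methionine-free and 1.003 for complete medium). Log2 differences used a prior count of 0.5 over genes averaging 10 counts or more. Folds are ratios of scaled counts, each with an exact conditional binomial 95% interval (scipy 1.17.1, Python 3.11.15). There was no test, only a fold of 1.5. One count was worth 0.0510 CPM without methionine and 0.0681 CPM in complete medium. Intervals cover counting error only. No molecular identifiers are named, so copies made in amplification may be among the counts, and the intervals may be too narrow. The steps were tested on simulated data.

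The 9 genes and the lists were chosen with earlier results of these data known. From each list the text names the genes past 2-fold, filled to 4 by size of difference, 35 genes by that rule; others named were chosen after their values were seen. A few genes of the lists are not reported here. Alternatives were 4 other scalings (DESeq2 1.42.0 size factors among them), a prior count of 2, no minimum or 100 counts, and a 2-fold threshold.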

Additional observations from a re-analysis of the deposited data

How the results depend on the processing

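The values of the 9 genes were recomputed under 5 alternatives (DESeq2 size factors, total counts, upper-quartile factors, TMM over protein-coding genes, a prior count of 2). The largest shift among the 45 recomputed log2 differences was 0.012, and Gcn1 alone took the other sign, at 0.01 with upper-quartile factors. None of the 9 was past 1.5-fold under these, without a minimum count or with a minimum mean of 100 counts, and none was past 2-fold. Among 9522 genes averaging 100 counts or more, 25.9% were past 1.5-fold in either direction. Of the list genes with such counts, 12 were past that fold higher and 12 lower. At 2-fold, the pathway lists together held 7 higher and 7 lower genes, beside 5.8% and 9.29% of all genes tested. Without a minimum count 53.1% of all genes were past 1.5-fold. Depth limits the list genes that averaged under 100 counts, among them Prkra, Map3k20, Mx1, Oasl1, Oasl2, Blvrb and Vldlr. No paired analysis was possible because each medium has 1 library; the count columns end in 1 (methionine-free) and 2 (complete medium), and what these numbers mark is not stated.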

Other observations

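Upstream start codons were counted in the annotated 5′ untranslated region of the transcript with the longest coding sequence. Of the 9 genes, 5 had at least 1, or 55.6%, beside 49.5% of 11111 tested genes with such a transcript. Impact had 8, the most of the 9, in 414 bases, Eif2ak3 and Ppp1r15b had 3 each, Eif2s1 had 2 and Eif2ak2 had 1. Eif2ak1, Eif2ak4, Gcn1 and Eif2b5 had none. Outside the set, Ppp1r15a had 7, Atf4 had 3, and Atf5 and Ddit3 had 2 each. Those of the 9 with an upstream start codon were at log2 differences of -0.48 to 0.47, and those without at -0.28 to 0.07. An upstream start codon bears on translation, which was not measured here.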
